A study of Mus musculus with 2 samples.

Results

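The tubulin isotypes described here are the 10 mouse genes Tuba1a, Tuba1b, Tuba1c, Tuba4a, Tuba8, Tubb1, Tubb2a, Tubb4b, Tubb5 and Tubb6, 5 that code for alpha tubulin and 5 that code for beta tubulin. They are defined by gene symbol, with no measured value in the rule, and all 10 were found among the 43346 Ensembl gene rows of the tables. Total RNA was sequenced from MEL cells, an immortalized mouse erythroleukemia line that has long been used to follow red cell maturation in culture. Every library was from cells given 2% DMSO (dimethyl sulfoxide), an inducer of that maturation, for 5 days, and no untreated cells were analysed here. The 2 libraries, replicate 1 and replicate 2, carry separate biological replicate numbers, yet their labels point to a single biosample record; differences between them may include technical variation. With 1 condition, isotypes are compared within each library, and the libraries are compared with each other without p-values.

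Microtubules are built from dimers of an alpha and a beta tubulin chain, and vertebrates carry several genes, or isotypes, for each chain. Isotypes are nearly identical through the folded body of the protein and differ most in the acidic tail at the carboxyl end, which faces outward from the microtubule and is where enzymes remove or add tyrosine, glutamate and glycine. Tuba1a and Tubb2a are best known from neurons, Tubb1 from platelets and megakaryocytes, Tuba8 from muscle, testis and brain, and Tuba1b, Tubb5 and Tubb4b are found in many dividing cells. In dividing erythroblasts microtubules form the spindle, and red cells of mammals lose them by the end of their maturation.

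The coding starts are shown because tubulin mRNA level is controlled through them: when free dimers are abundant, TTC5 binds the first residues of the nascent chain and the mRNA is degraded. In each sequence, 5′ to 3′ from the GENCODE M21 transcripts (GRCm38), the first 4 codons are in capitals.
Tuba4a: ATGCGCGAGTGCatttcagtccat
Tuba8: ATGAGGGAATGCatatcggtccat
Tubb5: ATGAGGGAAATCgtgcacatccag
Tubb4b: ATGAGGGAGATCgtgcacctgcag
The first 4 codons read methionine, arginine, glutamate and cysteine in all 5 alpha members, and methionine, arginine, glutamate and isoleucine in all 5 beta members.

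The coding ends are shown because they are where the isotypes differ most in the protein. The last 63 bases of the coding sequence are given with the last codon before the stop in capitals, first for the alpha members Tuba4a and Tuba8.
Tuba4a: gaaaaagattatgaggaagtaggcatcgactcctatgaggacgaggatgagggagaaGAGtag
Tuba8: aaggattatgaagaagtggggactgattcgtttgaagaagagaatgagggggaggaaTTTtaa
Tuba1a, Tuba1b and Tuba1c end in tyrosine, the residue that the vasohibins remove and tubulin tyrosine ligase puts back. Tuba4a ends in glutamate and so has no terminal tyrosine of its own, and Tuba8 ends in phenylalanine.

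The beta ends follow in the same layout.
Tubb5: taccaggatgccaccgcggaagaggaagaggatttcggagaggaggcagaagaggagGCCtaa
Tubb4b: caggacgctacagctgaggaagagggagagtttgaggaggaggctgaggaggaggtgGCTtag
Tubb2a: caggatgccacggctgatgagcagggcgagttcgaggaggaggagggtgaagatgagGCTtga
Tubb1: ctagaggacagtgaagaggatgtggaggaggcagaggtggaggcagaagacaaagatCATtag
Tubb5, Tubb4b and Tubb2a end in alanine and Tubb1 in histidine. Of the last 20 residues of each of the 10 proteins, 10 to 12 are acidic. Proteins are 444 to 451 residues long. Within the alpha members, coding sequences were 78.8% to 98.3% identical and proteins 90.0% to 99.6% over 10 pairs. The beta members were more spread, at 73.0% to 84.5% in coding sequence and 77.6% to 97.5% in protein, and Tubb1 was the most distant of them. Tubb5 and Tubb4b were 97.5% identical in protein but 82.2% in coding sequence, whereas Tuba1a and Tuba1b were 98.3% identical in coding sequence.

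Tubulin mRNA was abundant and came almost entirely from 7 of the 10 genes. These were 4 alpha (Tuba1b, Tuba1a, Tuba4a, Tuba1c) and 3 beta (Tubb5, Tubb4b, Tubb2a) isotypes, each reaching 1 TPM in replicate 1 and in replicate 2. TPM is the deposited level per length and scaled to the total over all rows, so it can be compared between genes within a library. In bulk RNA, a lower level from fewer cells of a type and from less RNA per cell cannot be told apart. Of 21461 nuclear protein-coding genes, 7990 (37.2%) reached that level in both libraries. Their median level was 4.83 TPM in replicate 1 and 3.98 in replicate 2, and the median of the 10 members was 32.14 and 25.12 TPM. The 7 expressed isotypes held 99.95% of the members' summed TPM in each library. Summed over the 10 members, the level was 589.87 TPM in replicate 1 and 422.95 in replicate 2, or 0.446% and 0.333% of the sum for nuclear protein-coding genes (0.390% ± 0.0801, SD, n = 2). Depth was 65109488 counts in replicate 1 and 90856320 in replicate 2. Nuclear protein-coding genes held 13.2% and 12.7% of all TPM, and which RNAs held the rest was not tested.

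**Figure D1:**
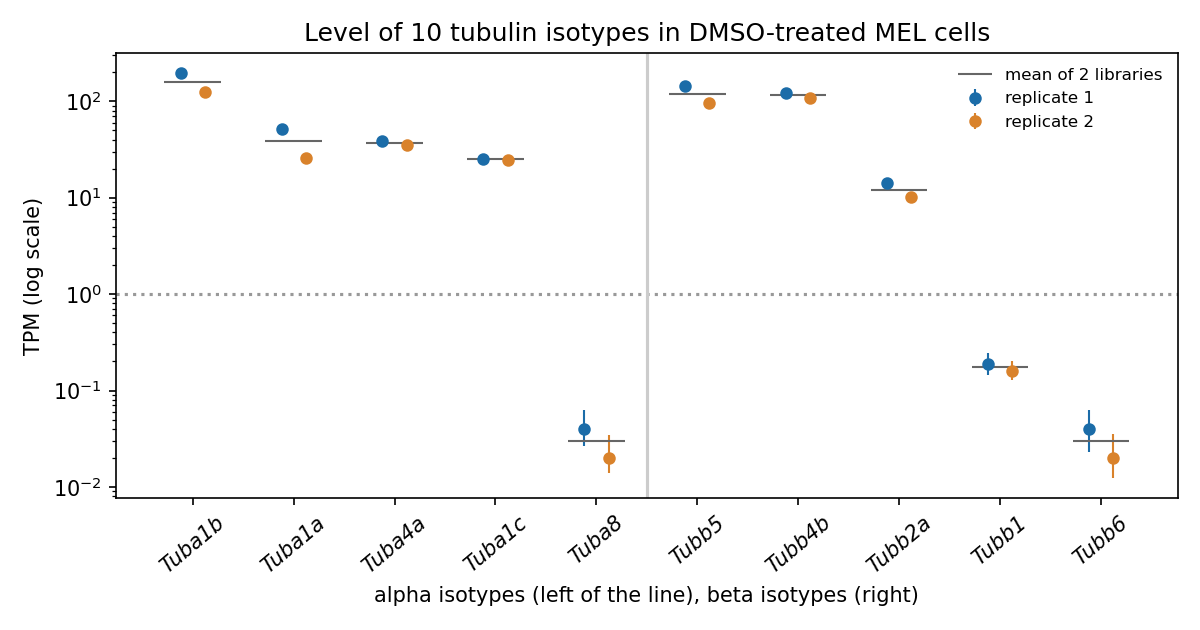
Level of each isotype in TPM (log axis) by gene, alpha members left of the vertical line and beta members right. Points are the 2 libraries with the interval the authors give for the TPM, short lines are the mean, and the dotted line is 1 TPM. Tuba1b, Tubb5 and Tubb4b lie above 90 TPM in both libraries, and Tuba8, Tubb1 and Tubb6 lie below 0.2.

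Tuba1b, the ubiquitous alpha isotype, had the highest level. Its TPM was 193.76 in replicate 1 and 124.15 in replicate 2 (159 ± 49.2, SD, n = 2), which ranked 116 and 156 among protein-coding genes. Tubb5, the main beta isotype of many dividing cells, was at 143.49 and 95.87 TPM (120 ± 33.7). Tubb4b, a broadly expressed beta isotype that is also used in cilia, was at 122.92 and 106.96 TPM (115 ± 11.3). These 3 genes held 78.0% and 77.3% of the members' summed TPM. Tuba1b was above Tubb5 in each library, by 1.35 and 1.29 times, although their ranges over the libraries overlapped. The order of Tubb5 and Tubb4b changed between libraries, with a TPM ratio of 1.17 in replicate 1 and 0.896 in replicate 2, so these neighbours did not differ beyond their spread.

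A middle group was made of alpha isotypes. Tuba1a, the alpha isotype best known from developing neurons, was at 51.10 and 25.62 TPM (38.4 ± 18.02), with the widest spread of the group. Tuba4a, which lacks the encoded terminal tyrosine, was at 39.04 and 35.32 TPM (37.2 ± 2.63). Tuba1c was at 25.24 and 24.62 TPM (24.9 ± 0.438). Tubb4b stood above Tuba1a by 2.41 and 4.17 times, with no overlap of the ranges. The order of Tuba1a and Tuba4a changed, at 1.31 in replicate 1 and 0.725 in replicate 2. By gene TPM, Tuba4a was above Tuba1c by 1.55 and 1.43 times, and Tuba1c above Tubb2a by 1.80 and 2.41 times, without overlap.

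Tubb2a, a beta isotype with its best known role in brain, was the lowest of the expressed members at 14.05 and 10.21 TPM (12.1 ± 2.72). Below it the level dropped by 73.9 and 63.8 times to Tubb1, the beta isotype of the platelet marginal band. Tubb1 was at 0.19 and 0.16 TPM, from 58 and 81 estimated counts. Tuba8 was at 0.04 and 0.02 TPM, from 21 and 19 counts. Tubb6, a widely expressed beta isotype in other cell types, was also at 0.04 and 0.02 TPM, from 15 and 14 counts. All 3 low members were above the 3 counts that a count of 0 allows, and below 1 TPM in both libraries.

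Within the alpha family, Tuba1b held 62.7% of the summed TPM in replicate 1 and 59.2% in replicate 2 (60.9% ± 2.46, SD, n = 2). Tuba1a held 16.5% and 12.2%, Tuba4a 12.6% and 16.8%, and Tuba1c 8.16% and 11.7%. Tuba1b was thus the leading alpha isotype in both libraries, and its ratio to Tuba4a was 4.96 and 3.52 by TPM. Within the beta family, Tubb5 held 51.1% and 45.0% (48.0% ± 4.35) and Tubb4b 43.8% and 50.2% (47.0% ± 4.51). Tubb2a held 5.01% and 4.79%, with a smaller spread than the other expressed isotypes. The alpha family therefore had a single leading isotype and the beta family a pair whose shares crossed between libraries. Estimated counts, which do not divide by length, gave Tubb5 over Tubb4b as 2.00 and 1.55.

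**Figure D2:**
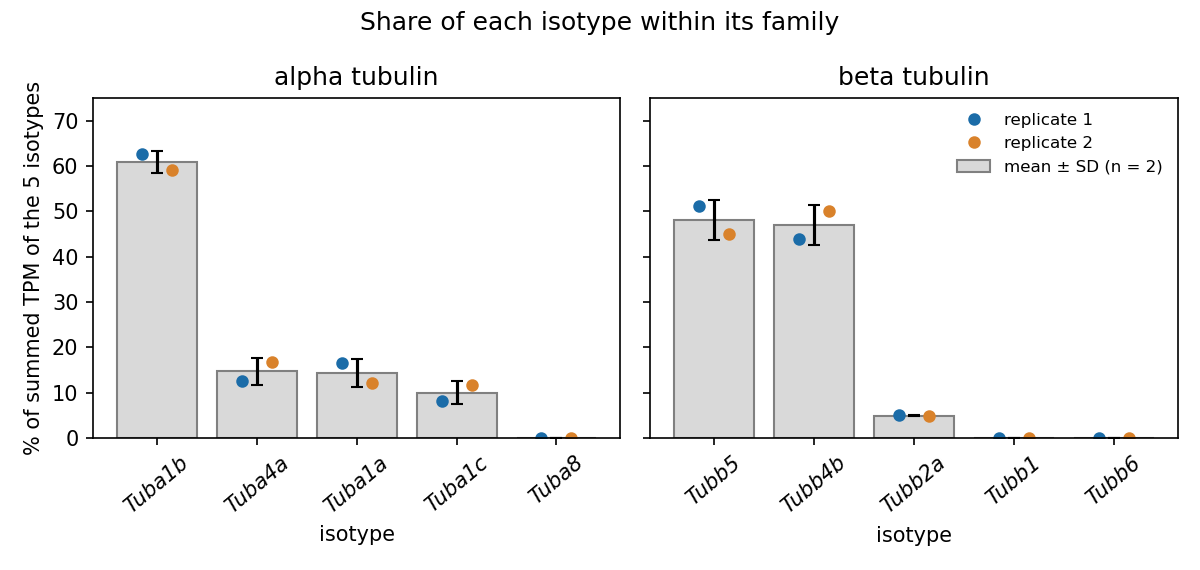
Share of the summed TPM of the 5 alpha or 5 beta isotypes held by each gene, in percent. Bars are the mean with the SD of the 2 libraries and points are the libraries. Tuba1b is at 62.7% and 59.2% of alpha, and Tubb5 and Tubb4b change order between the libraries.

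Each dimer takes 1 alpha and 1 beta chain, and the summed mRNA of the families was near parity by level. Summed alpha TPM was 309.18 and 209.73, and summed beta TPM was 280.69 and 213.22. The ratio of alpha to beta was 1.10 in replicate 1 and 0.984 in replicate 2 (1.04 ± 0.0833, SD, n = 2), on opposite sides of 1. By estimated count the ratio was 0.836 and 0.842. mRNA levels do not measure protein, and protein was not measured.

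The transcript tables showed that more of the Tuba1a gene TPM lay in a short transcript in replicate 1, but not in replicate 2. Per the authors' transcript tables, the full-length Tuba1a mRNA of 1647 nt was at 20.55 TPM in replicate 1 and 21.52 in replicate 2. It held 40.2% and 84.0% of the gene's TPM. A transcript of 610 nt listed under the same gene was at 30.51 and 4.09 TPM, which is 59.7% and 16.0% of the gene. The lower Tuba1a TPM of replicate 2 thus lay in the short transcript, while the full-length mRNA was 1.05 times higher there. In GENCODE M21, a later version of that transcript (ENSMUST00000134214) belongs to another gene, Gm49450, a readthrough across Tuba1b and Tuba1a at chr15:98932137-98953551 on the minus strand. Of its 899 exonic bases there, 473 (52.6%) lie in Tuba1a exons and 426 (47.4%) in Tuba1b exons. Without the short transcript, Tuba1a held 7.39% and 10.5% of alpha TPM and Tuba1b 69.5% and 60.4%, and the alpha to beta ratio was 0.993 and 0.965.

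**Figure D3:**
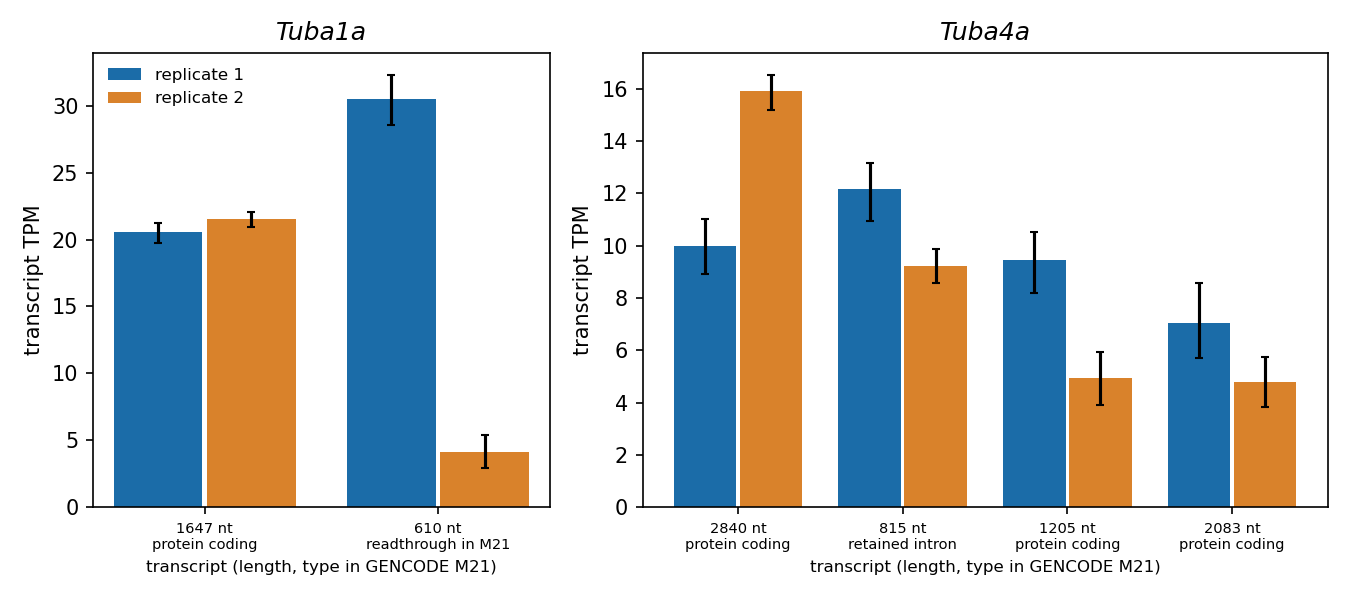
Transcript level in TPM for Tuba1a (left) and Tuba4a (right), for transcripts with a mean of at least 1% of their gene's TPM, labelled by length and type. Bars are the 2 libraries and error bars the interval the authors give. The 1647 nt Tuba1a mRNA is at 20.55 and 21.52 TPM while the 610 nt transcript is at 30.51 and 4.09.

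Tuba4a was the other member split among transcripts. Its 8 transcripts were led in replicate 2 by the 2840 nt coding form, at 45.0% of the gene's TPM against 25.5% in replicate 1. A retained-intron transcript of 815 nt held 31.2% and 26.1% and was the leading transcript of replicate 1. Counting only transcripts annotated as protein-coding put Tuba4a at 26.89 and 26.13 TPM. That is near Tuba1c at 25.24 and 24.62 TPM, a much smaller gap than by gene TPM. The Tuba4a gene also overlaps 1379 bases of Stk16, a kinase gene on the opposite strand with 3969 and 4038 counts, and the strand setting of the counting is not given in the sources used here, so reads of the overlap may be from either gene. The other members had a plain structure: the main transcript held over 96% of the TPM of Tuba1b, Tubb4b and Tubb5, and Tuba1c, Tuba8, Tubb1, Tubb2a and Tubb6 had 1 transcript each.

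The genes lie on 7 chromosomes of GRCm38. Tuba1b (chr15:98931425-98934565, minus strand), Tuba1a (chr15:98949837-98953703, minus) and Tuba1c (chr15:99029891-99038110, plus) form a cluster. Tuba4a is at chr1:75214228-75219865 (minus) and Tuba8 at chr6:121210696-121226854 (plus). Of the beta genes, Tubb4b is at chr2:25222160-25224702 (minus), Tubb1 at chr2:174450695-174457882 (plus), Tubb2a at chr13:34074274-34078007 (minus), Tubb5 at chr17:35833921-35838306 (minus) and Tubb6 at chr18:67390717-67402749 (plus). The cluster on chromosome 15 held the highest alpha isotype, Tuba1b, and also Tuba1c and Tuba1a. Tuba1c was the lowest expressed alpha isotype by gene TPM, but Tuba1a was the lowest without its short transcript (20.58 and 21.52 TPM against 25.24 and 24.62) and by estimated count (10761 and 13552 against 11098 and 17912).

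The 3 clustered genes share sequence, which bears on how reads are divided among them. Of all 50-base windows in the leading coding transcript of each, 52.0% for Tuba1a, 64.6% for Tuba1b and 59.8% for Tuba1c also occur in another member. For the other 7 members the share was at most 0.0641%. With windows of 100 bases, the shares in the cluster were 38.4%, 52.3% and 53.4%. The short transcript, Gm49450 in M21, is not in these shares. Of its own 50-base windows there, 79.3% occur in the leading Tuba1a transcript and 74.1% in that of Tuba1b. The authors' posterior SD of the count, a measure of that uncertainty, was 0.809% of the count for Tuba1a, 0.745% for Tuba1c and 0.132% for Tuba1b in replicate 1, and at most 0.149% for the others. The order of Tuba1b above Tuba1a and Tuba1c is far outside that error, but it rests on the authors' division of shared reads. The leading coding transcripts also share 50-base windows with pseudogenes: 66.2% for Tuba1b, 57.5% for Tuba1a, 53.6% for Tuba1c, 50.9% for Tubb4b and 19.5% for Tubb2a. For the other members the share was at most 1.11%. The pseudogenes in the tables held 2.28% and 2.18% of the counts of members and pseudogenes together.

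Between the libraries, the abundant isotypes differed in both directions and by less than 2-fold. Here log2 ratios are replicate 2 over replicate 1 on TMM-scaled estimated counts, with 95% exact intervals for counting error only, and 1 library stands on each side, so there is no replicate check. Tuba1b was lower in replicate 2 by a log2 ratio of -0.37 (-0.383 to -0.354), and Tubb5 by -0.30 (-0.309 to -0.282). Tuba4a was higher at 0.39 (0.363 to 0.423) and Tuba1c at 0.24 (0.207 to 0.275). So within the alpha family the leading isotype was lower and Tuba4a and Tuba1c were higher in the same library. Tubb4b was at 0.08 (0.0571 to 0.0930), Tubb2a at -0.18 (-0.240 to -0.129) and the Tuba1a gene row at -0.12 (-0.154 to -0.0804). The short transcript sets the direction of Tuba1a: without it the ratio was 0.34 (0.300 to 0.383), from 7406 and 12816 counts, higher in replicate 2. The intervals of the low members Tuba8, Tubb1 and Tubb6 all included 0.

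None of the 10 members reached a 2-fold difference, where 1250 of 15272 genes with 10 or more counts did (8.18%), 3.23% higher and 4.95% lower in replicate 2. With so few members, that count does not set them apart. The median log2 ratio of the members was -0.15, beside -0.0037 over all tested genes, whose median absolute log2 ratio was 0.28. The signs, 6 lower and 4 higher, were the same with TMM, DESeq2 size factors and total counts; without the short transcript, Tuba1a would be among the higher. By raw TPM all 10 were lower in replicate 2, where the median log2 TPM ratio of expressed protein-coding genes was itself -0.26, a shift of -0.30 from the TMM scale. With that median subtracted, Tuba4a (0.11), Tuba1c (0.22), Tubb4b (0.06) and, barely, Tubb1 (0.008) were again higher. The Tuba1a gene row was at -0.74 on that scale, and at 0.32 without the short transcript.

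**Figure D4:**
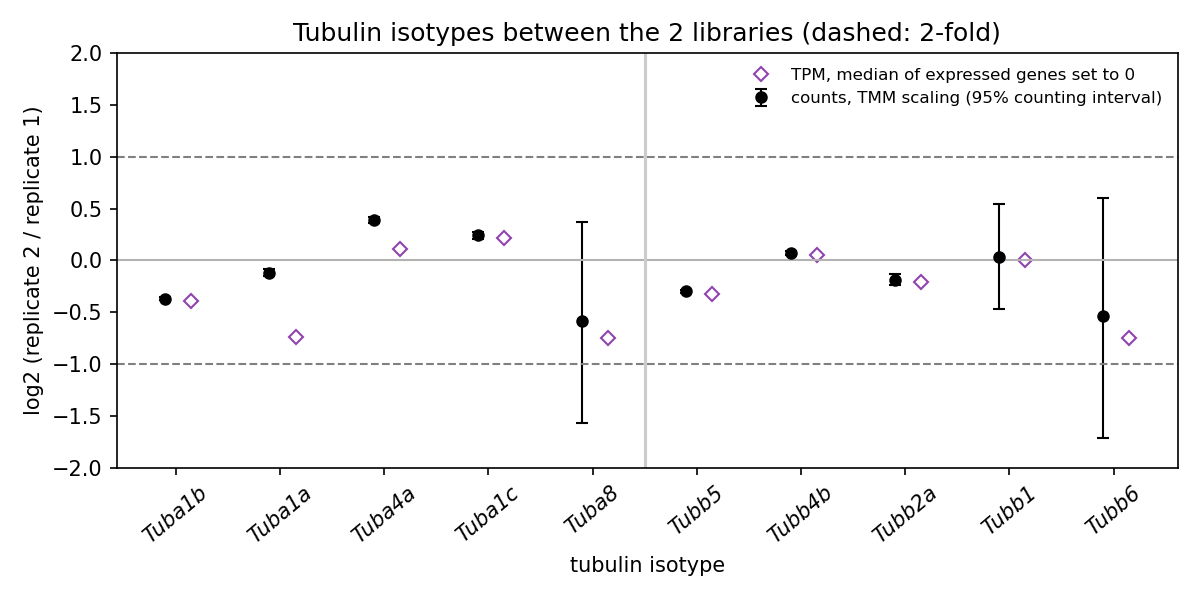
Log2 ratio of replicate 2 over replicate 1 for each isotype. Filled points are TMM-scaled counts with 95% counting intervals, open diamonds are TPM with the median of expressed protein-coding genes set to 0, and dashed lines mark 2-fold. All 10 filled points lie within 2-fold, and the Tuba1a gene row is at -0.12 by count and -0.74 by TPM, both turning positive (0.34 and 0.32) without its short transcript.

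The libraries also differed in erythroid genes. All 12 erythroid markers reached 1 TPM in each library, and 8 were past 2-fold higher in replicate 2 (median log2 ratio of the list 1.35). Over all tested genes, 3.23% were past 2-fold higher in replicate 2. Hba-a2 and Hba-a1, the alpha globin genes, had the highest mean levels, at 2828.39 and 5996.70 TPM and at 2038.28 and 3934.23 TPM. Slc4a1, the anion exchanger of the red cell membrane, was at 1.33 and 5.99 TPM, a log2 ratio of 2.79, and the next largest ratios were 1.82 for Epb42, 1.78 for Alas2 and 1.46 for Hbb-bs. Every marker not past 2-fold is named here: Sptb (log2 ratio 0.86), Epor (0.24), Klf1 (0.18) and Car1 (-0.59). Car1 was lower in replicate 2, at 262.5 and 143.39 TPM. By count, 4 tubulin members were also higher in replicate 2 and 6 were lower, and none of the 10 reached 2-fold. Without its short transcript, Tuba1a would be among the higher. The median absolute log2 ratio over all tested genes was 0.28. The part of the erythroid differences in the tubulin differences was not tested.

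Markers of other lineages were checked because several isotypes are best known elsewhere. None of 10 neuron markers reached 1 TPM in both libraries, with a summed level of 0.39 and 0.44 TPM, nearly all of it Syp, and Map2, Elavl4 and Syt1 had no counts in either library. None of 10 macrophage and granulocyte markers did, with a summed level of 0.36 and 0.25 TPM, led by Csf1r at 0.17 and 0.12 and Lyz2 at 0.13 and 0.11, and Ly6g, Cd14, S100a8 and S100a9 had no counts. Of 11 megakaryocyte markers, 3 did: Pf4, a platelet chemokine, at 34.06 and 24.69 TPM, Itga2b, the platelet integrin alpha chain, at 11.06 and 19.08 TPM, and Gp5 at 1.94 and 1.08 TPM. Itga2b was past 2-fold higher in replicate 2 (log2 ratio 1.12), and Selp and Ppbp had no counts. Tubb1, the megakaryocyte beta isotype, was thus below 0.2 TPM in libraries where Pf4 was above 20.

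The other 10 tubulin genes were low. Tubg1, the main gamma tubulin that seeds microtubules, was at 11.28 and 8.58 TPM, Tubd1 (delta, a centriole tubulin) at 2.84 and 2.02, and Tubb3, a beta isotype used as a neuron marker, at 2.00 and 1.86 TPM. Those 3 of 10 reached 1 TPM in both libraries. Tube1 was at 0.45 and 0.40 TPM and Tubb4a at 0.37 and 0.25. Tubb2b, a close paralog of Tubb2a, was at 0.34 and 0.10 TPM, from 146 and 69 counts. Its log2 ratio of -1.52 (-1.97 to -1.11) was the only one past 2-fold among the 6 tested, beside 8.18% of all tested genes. Tuba3a, Tuba3b, Tubal3 and Tubg2 had at most 5 counts in a library. Among all tubulin genes, the expressed beta isotypes after Tubb5 and Tubb4b were thus Tubb2a and, far lower, Tubb3.

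The proteins that fold tubulin were expressed throughout. TRiC is the ring chaperonin that folds new alpha and beta chains, and all 8 of its subunit genes reached 1 TPM in each library, with a median of 48.9 and 42.3 TPM. By the mean of the libraries, its highest were Cct3 at 118.14 and 78.81 TPM and Cct5 at 98.08 and 79.12, and its lowest Cct6a at 31.46 and 23.04. Highest and lowest genes of the other lists are by that mean too, and single libraries can differ in order. All 6 prefoldin genes, whose product hands unfolded chains to TRiC, were expressed (median 11.5 and 11.0 TPM), from Pfdn5 at 45.88 and 41.34 and Pfdn6 at 27.22 and 19.43 down to Pfdn2 at 4.57 and 2.57 TPM. Folding cofactors take part in joining the alpha and beta chains, and all 7 genes listed with them were expressed (median 7.66 and 4.77 TPM). The list was led by Tbca at 41.63 and 39.11 and Tbcd at 11.80 and 8.88, with Tbcel lowest at 1.74 and 1.90 TPM. None of these 21 genes was past 2-fold between the libraries, beside 8.18% of all tested genes. With so few genes, that count does not set them apart. The lists' median log2 ratios were -0.03, -0.14 and 0.01.

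Genes that nucleate microtubules and those that act on tubulin mRNA were lower but nearly all present. All 17 gamma-tubulin ring and augmin genes reached 1 TPM in both libraries, with a median of 4.67 and 4.01 TPM. By mean level Haus8 was highest at 7.88 and 6.54, next was Haus3 at 6.23 and 7.63, and Haus2 was lowest at 1.60 and 1.16 TPM. Of 12 genes of tubulin mRNA autoregulation, 11 did (median 4.50 and 3.60 TPM). Ttc5, which reads the nascent tubulin start printed above, was at 3.57 and 2.97 TPM. The adaptor gene Scaper was the lowest at 0.79 TPM in each library, and Cnot8 and Cnot1, of the CCR4-NOT deadenylase, were the highest at 10.19 and 10.28 and at 9.65 and 9.56 TPM. No gene of either list was past 2-fold, beside 8.18% of all tested genes, and the lists are too short for that to set them apart.

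Enzymes that modify tubulin were mostly low. Of 25 genes, 12 reached 1 TPM in both libraries (median 1.12 and 0.94 TPM), led by mean level by Svbp, the partner of the vasohibins, at 8.88 and 7.65 and Ttll12 at 6.84 and 4.23 TPM. Ttl, the ligase that restores the terminal tyrosine carried by Tuba1a, Tuba1b and Tuba1c, was at 1.12 and 0.94 TPM. The vasohibin genes that remove it were at 0.47 and 0.31 TPM for Vash1 and at 0.63 and 0.28 for Vash2. The acetyltransferase gene Atat1 was at 2.00 and 1.57 TPM, and the deacetylase genes Hdac6 and Sirt2 were at 3.31 and 3.60 and at 4.94 and 5.37. Agbl1 and Ttll7 had no counts in either library, where 3 counts are worth 0.0461 CPM (replicate 1) or 0.0330 CPM (replicate 2). None of the 20 tested was past 2-fold, beside 8.18% of all tested genes, which with so few does not set them apart. The enzymes named here beyond the 2 highest and those at 0 (Ttl, Vash1, Vash2, Atat1, Hdac6, Sirt2), like Ttc5 and Gp5 above, were chosen after their values were seen.

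Of 27 genes for proteins that bind or take apart microtubules, 15 reached 1 TPM in both libraries (median 1.59 and 1.87 TPM). Stmn1, which binds free dimers, was the highest at 33.15 and 26.07 TPM, and Ckap5, a polymerase at growing ends, followed at 9.53 and 10.22. Map2, a dendrite protein, and the severing enzyme gene Fign had no counts. Of 22 tested, 1 was past 2-fold, Stmn4, with 0 and 11 counts, beside 8.18% of all tested genes. The median log2 ratio of this list was 0.03, and that of the modifying enzymes was -0.16, beside -0.15 for the 10 isotypes.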

How the data were processed

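Total RNA-seq of 2 libraries was used. Per the deposited readme, the authors used mm10 and GENCODE M4. Aligner, quantifier and strand setting were not given in the sources used here. The deposited tables hold, per the file headers, an estimated count, TPM, FPKM, a posterior SD and, for transcripts, the percent of the gene's TPM. Fragments were selected at 300 to 350 bases, per the labels. Names and coordinates came from GENCODE M21 (42462 of 43346 Ensembl rows matched). Rows with no Ensembl gene held 0.000115% and 0.000181% of counts and stayed in the totals.

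Levels and shares used TPM. Estimated counts were rounded, genes with 10 or more counts in a library kept, 0.5 added, and TMM scaling taken from edgeR 4.0.16 (DESeq2 1.42.0 size factors as an alternative). Intervals are Clopper-Pearson and, like floors of 3 counts, cover counting error only: the tables give no molecular identifiers, so reads need not be independent molecules. Coding sequences were aligned with biopython 1.88, and pseudogenes sought with blastn 2.17.0 (80% identity, 200 bases).

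The members are defined by symbol, but they and the other gene lists were chosen with earlier results of these data known. Named genes are all members, the other tubulin genes, tubulin pseudogenes with 10 or more counts, and of each list the 2 highest and the lowest by mean TPM, those at 0 counts and up to 4 past 2-fold, except where said. The sequences of some members are not reported here.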

Additional observations from a re-analysis of the deposited data

Results flagged for a closer look

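Reads assigned to processed pseudogenes of the members lie outside the comparisons above, and 7 such pseudogenes had 10 or more estimated counts in a library. That minimum is itself above the 3 counts that a count of 0 allows, so passing that floor tells nothing more. Gm14150, nearest to Tuba1b at 98.6% identity, had 3812.61 counts in replicate 1 and 4261.25 in replicate 2. Gm17383, also nearest to Tuba1b, had 992.02 and 1391.06 counts. Gm6682, nearest to Tuba1c, had 470.39 and 552.38 counts, and its TPM of 13.64 and 10.11 was close to that of Gm14150 (13.17 and 8.91), which had many more counts. Gm5620 had 138.93 and 110.31 counts, and Gm11870, at 81.8% identity to Tuba1a, had 103.0 and 110.0. Tubb4b-ps1 had 65.75 and 108.25 counts and Tubb4b-ps2 10.14 and 16.26. Of 33 pseudogenes found by sequence, 17 were in the tables. How much of these counts came from the parent genes was not tested.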

How the results depend on the processing

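With other tubulin genes and pseudogenes added, Tuba1b held 55.0% of alpha TPM in place of 60.9% and the alpha to beta ratio was 1.14 in place of 1.04. Without the short Tuba1a transcript the Tuba1b share was 64.9%, and with protein-coding transcripts only it was 67.7% and the ratio 0.955 (both chosen after seeing the data). With estimated counts, which do not divide by length, Tubb5 held 61.3% of beta in place of 48.0% and the ratio was 0.839. By estimated count the members held 0.523% of nuclear protein-coding counts in place of 0.390% of TPM. With TPM and no rescaling, 2 members were at 2-fold, Tuba8 and Tubb6, each 0.04 against 0.02 TPM. Those TPM are rounded and rest on 21 and 19 counts for Tuba8 and 15 and 14 for Tubb6. The Tuba1a gene row fell just short, at 51.10 against 25.62 TPM (log2 ratio -0.996). Leaving out each library gave ranges of 59.2% to 62.7%, 45.0% to 51.1%, 0.984 to 1.10, 0.333% to 0.446% and 7 expressed members. With 2 libraries these ranges are the spread itself and test nothing. Of the other alternatives, 16 stayed within that spread or, for numbers of members, gave the same number. The Tuba1a log2 ratio turned from -0.12 to 0.34 both without the short transcript and with protein-coding transcripts only. No member's ratio changed sign under DESeq2 size factors, total counts or 5 added; with total counts Tuba1b, Tuba4a, Tubb4b and Tubb5 moved beyond their counting intervals, as did Tuba4a with protein-coding transcripts only (0.46). No paired analysis was possible because there is 1 group. Depth limits Tuba8, Tubb1 and Tubb6, whose counts were 14 to 81.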
